A study of Mus musculus with 37 samples.

Results

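Lung mRNAs of fetal A/J mice were compared between E16.5 and E17.5 (embryonic days), a single day of late gestation. The comparison used the 3 A/J lung samples labelled E16.5 and the 3 labelled E17.5, which are 6 of the 37 arrays of the series. It covered the probe sets with exactly 1 gene symbol, 21789 of the 35556 on the Affymetrix Mouse Gene 1.0 ST array. A/J is an inbred mouse strain, and the labels name no added allele or agent for any group used here. Each sample was whole right lung RNA pooled from 3 males of 1 litter, so that the 3 replicates of a group were 3 litters and the spread between animals of a litter was not measured. The same day in the B6 strain (C57BL/6J, 3 samples at E16.5 and 3 at E17.5, pooled in the same way) served as a separate set of litters for comparison. The paper reports a shorter gestation in B6 than in A/J, so the same day lies nearer to birth in B6.

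At this age the mouse lung passes from the pseudoglandular and canalicular stages, in which a dividing epithelial tip branches into mesenchyme, towards the saccular stage, in which thin-walled air sacs form. Distal epithelial progenitors give rise to flat type I cells, across which gas will be exchanged, and cuboidal type II cells, which make surfactant. In the airways club (secretory) and ciliated cells differentiate, and capillaries come to lie against the epithelium. Fetal glucocorticoid signaling is known to be needed for this maturation and for the thinning of the mesenchyme.

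Values are deposited log2 intensities, and a change is the E17.5 mean minus the E16.5 mean on that scale, so that 1 is a 2-fold change. A gene was called when its limma p-value, adjusted by the Benjamini-Hochberg method over all 21789 probe sets, was under 0.05. "Fell" and "rose" are used only for called genes. Errors of a change are moderated standard errors (SE), with n = 3 litters per group. Counts per gene use 1 probe set for each of 19938 genes, the one with the highest mean. In whole-lung RNA fewer cells of a type and less RNA per cell cannot be told apart.

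The labelled tissue was checked against 10 lung markers, and all were present. Sftpc, the surfactant protein of the distal epithelium, had values between 13.42 and 13.72 on the 6 arrays and was not called. Array medians lay between 6.34 and 6.44, within the range of 6.34 to 6.54 over all arrays. Some arrays stood apart in single respects. Of the 208 genes that rose at least 2-fold, 133 had their highest E16.5 value in replicate 1. Of the 136 that fell at least 2-fold, 28 had their lowest E16.5 value there, so this litter was not nearer to E17.5 in both directions. Genes of oesophagus and stratified epithelium had array means of 6.49 and 6.43 in E17.5 replicates 1 and 3 against 6.03 in replicate 2 and 5.75 to 6.10 at E16.5. Krt13 and Krt4, keratins of the oesophagus lining, were not called, and 3 of 15 genes of this list rose (1 without E17.5 replicates 1 and 3). Of 14 skeletal muscle genes and of 17 liver genes 1 each rose, and of 15 cartilage genes 3 fell. Heart muscle genes had array means of 6.72 to 6.97 at E16.5 and 7.16 to 7.37 at E17.5, and 2 of 18 rose (8 of 18 when the fit held the 6 arrays alone). The median changes of thymus and T cell genes and of neuron and glia genes were 0.03 and 0.05. The muscle count was 2 without E16.5 or E17.5 replicate 2 and 0 without E17.5 replicates 1 and 3, and 1 cartilage gene fell without E16.5 replicate 3 or E17.5 replicate 1. A part of these tissues in the results was not tested, and list counts that move by more than 1.5 times without a litter, or without E17.5 replicates 1 and 3, are given beside them.

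Over this day 3466 probe sets fell (15.9% of those tested) and 2777 rose (12.7%). Per gene, 3143 of 19938 fell (15.8%) and 2524 rose (12.7%), while 136 fell at least 2-fold (0.682%) and 208 rose at least 2-fold (1.04%). List counts below are to be read beside these shares of all genes, and a count near them shows nothing particular to its list. Some genes, such as Adm and Myc, belong to more than 1 list, so counts of different lists are not independent. The median change of all genes was 0.02. The 3 values of one day lay entirely below the 3 of the other in 4140 genes that were lower at E17.5 (20.8%) and in 3620 that were higher (18.2%). All 208 genes that rose 2-fold and 135 of the 136 that fell 2-fold had such separate values. The largest rises exceeded the largest falls in size: changes of single genes ran from -1.63 to 3.85.

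Side by side with the neighbouring A/J days, with which it shares samples, this day held more 2-fold changes in total. From E15.5 to E16.5, 429 probe sets fell and 1022 rose, with 2 and 80 of these past 2-fold. From E17.5 to E18.5, 993 fell and 5831 rose, with 5 and 62 past 2-fold, a split that became 2097 and 2666 when each array was centred on its median. For E16.5 to E17.5 itself the counts past 2-fold were 150 and 249 probe sets. The standard deviation of the change over probe sets was 0.337 on this day, 0.213 on the day before and 0.253 on the day after. Without E17.5 replicates 1 and 3, which leaves 1 sample assumed to vary like the other groups, 1646 probe sets fell and 1653 rose, and the 2-fold counts were 112 and 268.

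**Figure D1:**
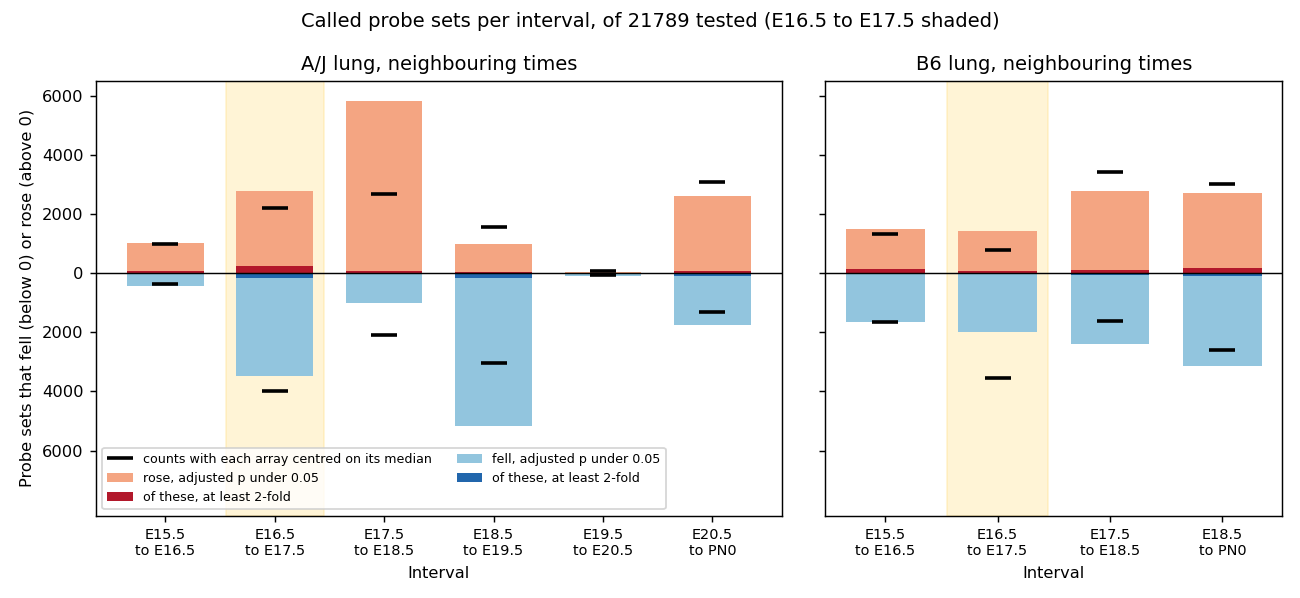
Number of probe sets that fell (below 0) and rose (above 0) at adjusted p under 0.05 between neighbouring sampling times in A/J (left) and B6 (right), with darker bars for those past 2-fold and black marks for the counts with each array centred on its median. E16.5 to E17.5 had 3466 falling and 2777 rising probe sets, 150 and 249 of them past 2-fold.

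The promoters of 5 falling genes and 1 rising gene are shown. They were picked with their values known and do not stand for all falling genes. Of the 136 genes that fell at least 2-fold, 21 belong to the list of DNA replication. This class is known to be driven by E2F transcription factors, and not all genes shown belong to it. Each sequence runs 5′ to 3′ over the 300 bases around the start of the gene, most of them upstream, from RefSeq on GRCm38.p6. Capitals mark an E2F core or a CCAAT box on either strand. The first form of the E2F core searched was TTCCCGC. Its other forms were TTGGCGC, with a different centre, and likewise TTCGCGC. Suv39h2 and Hells act on chromatin, Mcm5 is a subunit of the replicative helicase, Chek1 is a checkpoint kinase, Cyp51 is a sterol demethylase and Slc34a2 is the phosphate carrier of type II cells.
Suv39h2, chr2:3474937-3475236, minus strand: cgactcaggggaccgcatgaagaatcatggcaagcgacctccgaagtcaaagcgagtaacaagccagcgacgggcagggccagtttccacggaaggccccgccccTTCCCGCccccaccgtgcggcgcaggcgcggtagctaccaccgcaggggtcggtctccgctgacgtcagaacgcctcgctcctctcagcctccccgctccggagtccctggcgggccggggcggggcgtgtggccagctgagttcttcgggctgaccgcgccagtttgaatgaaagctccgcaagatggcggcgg
Hells, chr19:38930740-38931039, plus strand: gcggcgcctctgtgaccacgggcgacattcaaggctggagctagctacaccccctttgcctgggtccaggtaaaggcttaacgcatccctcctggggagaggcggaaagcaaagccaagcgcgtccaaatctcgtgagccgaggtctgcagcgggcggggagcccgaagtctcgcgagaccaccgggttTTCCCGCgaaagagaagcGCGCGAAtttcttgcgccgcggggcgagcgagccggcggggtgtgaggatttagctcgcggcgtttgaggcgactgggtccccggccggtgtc
Mcm5, chr8:75109259-75109558, plus strand: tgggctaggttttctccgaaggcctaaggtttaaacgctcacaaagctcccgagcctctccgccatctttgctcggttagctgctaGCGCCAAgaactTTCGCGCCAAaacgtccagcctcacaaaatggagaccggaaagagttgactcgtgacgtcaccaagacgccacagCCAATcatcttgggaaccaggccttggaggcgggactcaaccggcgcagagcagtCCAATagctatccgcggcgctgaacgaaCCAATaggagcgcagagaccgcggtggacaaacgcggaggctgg
Chek1, chr9:36726609-36726908, minus strand: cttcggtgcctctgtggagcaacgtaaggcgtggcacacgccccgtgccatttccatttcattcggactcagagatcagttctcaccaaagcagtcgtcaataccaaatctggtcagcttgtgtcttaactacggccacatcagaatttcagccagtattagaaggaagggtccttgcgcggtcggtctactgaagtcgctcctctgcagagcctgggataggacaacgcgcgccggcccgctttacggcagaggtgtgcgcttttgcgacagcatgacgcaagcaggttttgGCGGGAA
Cyp51, chr5:4104648-4104947, minus strand: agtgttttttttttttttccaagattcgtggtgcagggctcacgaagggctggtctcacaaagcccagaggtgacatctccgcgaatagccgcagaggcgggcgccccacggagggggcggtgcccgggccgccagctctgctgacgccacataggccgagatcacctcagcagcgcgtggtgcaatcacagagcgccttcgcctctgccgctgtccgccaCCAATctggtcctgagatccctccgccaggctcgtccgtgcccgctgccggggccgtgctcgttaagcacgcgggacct
Slc34a2, chr5:53049103-53049402, plus strand: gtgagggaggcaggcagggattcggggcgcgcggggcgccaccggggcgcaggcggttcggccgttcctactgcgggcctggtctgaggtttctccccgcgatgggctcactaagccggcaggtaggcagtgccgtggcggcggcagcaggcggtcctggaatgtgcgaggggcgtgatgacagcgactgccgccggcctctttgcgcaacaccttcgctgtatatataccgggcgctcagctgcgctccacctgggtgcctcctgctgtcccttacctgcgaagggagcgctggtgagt

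Of the 136 genes that fell at least 2-fold, 114 had a promoter in the table, and 46 of these (40.4%) held an E2F core. Among the 15 largest falls 6 of 11 with a promoter held it, and among the 15 largest rises 0 of 11. Here and in the lists below a gene counted when any of its listed promoters held the motif. The share was 9.26% of 162 genes that rose 2-fold and 12.7% of 15614 genes tested. Over all 32851 promoters listed it was 8.07%, but there each promoter was counted singly, which is an unlike unit. The CCAAT box stood in 55.3%, 41.4% and 41.7% of the first 3 sets and in 37.4% of all promoters. The CHR element of late cell cycle genes (TTTGAA, either strand) stood in 22.8% of the falling and 19.1% of the rising genes against 17.3% of the tested genes. A TATA box (TATAAA, either strand) stood in 7.89%, 16.0% and 13.6%. In Mcm5, 2 of the 3 E2F cores overlap, and 3 CCAAT boxes follow them. The Slc34a2 window held none of these letters, which says only that they are not in these 300 bases. A match is a description of the sequence and not a measured binding site. Genes and motifs of this comparison were chosen with their values known.

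Replication genes fell as a whole list. Of 43 genes of origin licensing and the replication fork, 43 fell, 21 of them at least 2-fold, with a median change of -0.99 against 0.02 for all genes. Mcm5, which loads onto origins with the other minichromosome maintenance subunits, had values of 10.03, 9.84 and 9.89 at E16.5 and 8.44, 8.43 and 8.41 at E17.5. All E17.5 litters lay more than the whole E16.5 spread below the E16.5 litters. The change was -1.49 ± 0.13 (SE, n = 3 and 3, adjusted p = 5.59e-10). Gins1, a subunit of the GINS complex of the fork, went from 8.16, 8.04 and 8.07 to 6.75, 6.67 and 6.48, a change of -1.46. Mcm3 and Pole, the leading-strand polymerase, fell by 1.37 and 1.36. Mcm2, Mcm6 and Mcm7 fell by 1.27, 1.08 and 1.23. Pcna, the sliding clamp of the polymerases, fell from 11.25, 11.12 and 11.20 to 10.27, 10.26 and 10.06. Of the 34 replication genes with a listed promoter, 22 held an E2F core (64.7%).

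Nucleotide synthesis genes moved with them, and 15 of 16 fell with a median of -0.93. Tyms, thymidylate synthase, had values of 9.15, 8.94 and 9.24 and then 7.82, 7.93 and 7.85, with no overlap, and fell by 1.24. Cad, which catalyses the first steps of pyrimidine synthesis, fell by 1.18. Dctd, the deaminase that supplies deoxyuridylate to Tyms, was among the 15 largest falls, from 8.90, 8.87 and 9.15 to 7.68, 7.47 and 7.48. Rrm2, the regulated subunit of ribonucleotide reductase, and Umps fell by 1.08 and 1.06. Outside the list Slc7a5, an amino acid carrier of growing cells, fell by 1.06, and Mthfd1l, a mitochondrial enzyme of folate metabolism, fell by 1.20.

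DNA repair and checkpoint genes fell in 23 of 23 cases, with a median of -0.87. Exo1, an exonuclease of mismatch repair and end resection, had values of 8.27, 8.10 and 8.27 at E16.5 and 6.84, 6.82 and 6.39 at E17.5, where replicate 3 was lowest. It fell by 1.53 (SE 0.16, adjusted p = 1.31e-08). Chek1, the kinase that holds cells with stalled forks, fell from 9.12, 9.05 and 9.12 to 7.85, 7.69 and 7.47. Rad54l and Brca1, both of homologous recombination, fell by 1.22 and 1.19. Atm, the kinase that senses double-strand breaks, fell by 0.60. An E2F core stood in 13 of 20 repair genes with a listed promoter (65.0%).

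Mitosis genes fell in most cases. Of 22 mitotic kinases and spindle checkpoint genes 22 fell (median -0.86), as did 26 of 26 centromere and kinetochore genes (-0.78), 13 of 13 mitotic kinesins (-0.82), 15 of 20 genes of chromosome condensation and cohesion (-0.52) and 14 of 17 cyclins with their activators (-0.65). Plk1, the kinase that drives mitotic entry, had values of 9.95, 9.72 and 9.99 and then 9.01, 9.02 and 8.94. Its groups did not overlap and it fell by 0.90 (SE 0.16, adjusted p = 5.86e-05). Trip13, which disassembles the checkpoint complex, and Bub1, a checkpoint kinase, fell by 1.23 and 1.05. Cenph and Cenpk, of the inner kinetochore, fell by 1.29 and 1.27. Kif4 and Kif15, motors of the spindle and chromosome arms, fell by 1.03 and 1.01. Ccne1 and Ccne2, the cyclins of entry into DNA synthesis, had larger changes of -1.29 and -1.32, with E16.5 values of 8.27 to 8.75 and E17.5 values of 6.94 to 7.37. Among mitotic kinase genes with a listed promoter the E2F core stood in 3 of 19 (15.8%) and the CCAAT box in 13 of 19 (68.4%). Over all genes tested the shares were 12.7% and 41.7%. The CCAAT share was 36.4% for ribosome biogenesis genes, which all fell. It was 58.8% for glucocorticoid targets and 16.7% for surfactant genes, which mostly rose. Without E17.5 replicates 1 and 3 the kinesin count was 5 of 13 and the kinetochore count 16 of 26.

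Transcription factors of the cell cycle fell in 14 of 19 cases (median -0.65). Myc, a factor of growth and ribosome production, fell from 9.08, 9.01 and 8.97 to 7.84, 7.87 and 8.07. Mybl2, E2f8 and E2f3 fell by 1.07, 1.05 and 1.01, and Foxm1, which drives mitotic genes, by 0.78. Among 19 cell cycle inhibitors and quiescence factors, 8 rose and 3 fell, with a median of 0.15, and without E17.5 replicates 1 and 3 these counts were 5 and 1. Cdkn2b, an inhibitor of the cyclin D kinases, had values of 6.79, 7.06 and 6.44 and then 8.0, 8.20 and 8.19, all higher, and rose by 1.37 (SE 0.15, adjusted p = 2.44e-08). Gadd45g, a stress and growth arrest protein, rose by 1.34. Rbl1, a retinoblastoma relative that is itself known as an E2F target, fell by 0.89.

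**Figure D2:**
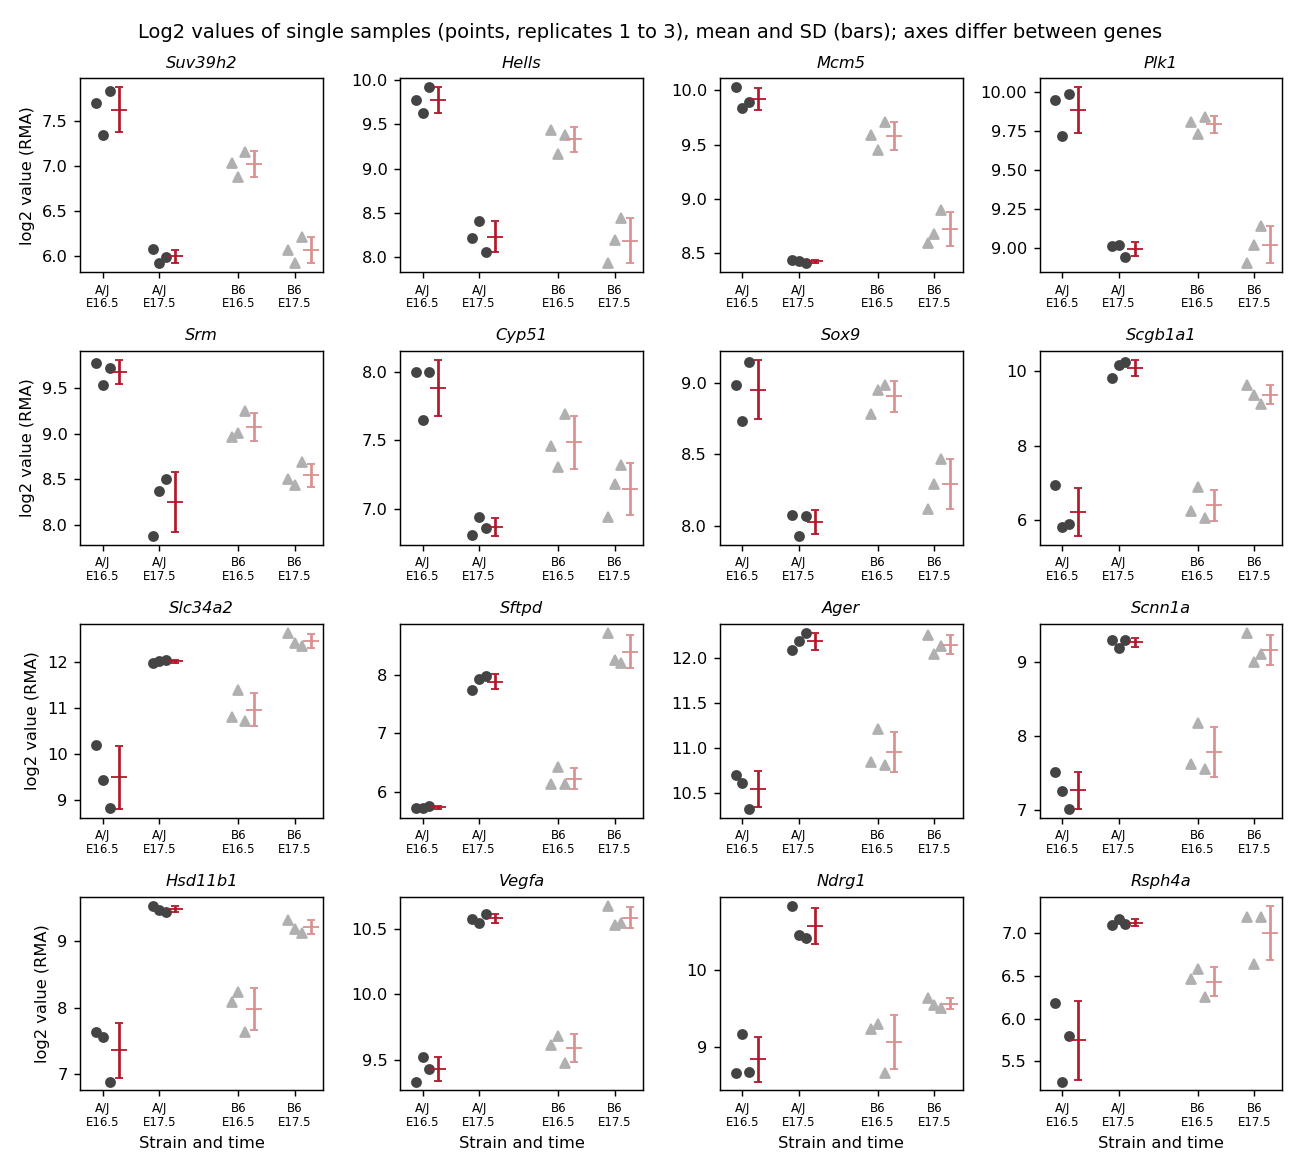
Deposited log2 values of 16 genes at E16.5 and E17.5 in A/J (dark circles) and B6 (pale triangles), each point 1 litter, with the mean and SD of each group (n = 3) as bars and an axis of its own for each gene. In A/J, Suv39h2, Hells, Mcm5, Plk1, Srm, Cyp51 and Sox9 lie lower at E17.5 and the other 9 higher, with no overlap in any of them, and E16.5 replicate 1 is the highest E16.5 point for Scgb1a1 and Slc34a2.

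Chromatin genes held the largest fall of all. Suv39h2, a histone H3 lysine 9 methyltransferase, had values of 7.70, 7.35 and 7.83 at E16.5 and 6.08, 5.93 and 5.99 at E17.5. The lowest E16.5 litter was above every E17.5 litter by more than 1 on the log2 scale. It fell by 1.63 (SE 0.12, adjusted p = 2.42e-11), a 3.09-fold change. Hells, a remodeler needed for DNA methylation, fell by 1.54 from 9.77, 9.63 and 9.92 to 8.22, 8.41 and 8.06. Uhrf1, which brings the maintenance methyltransferase to replicated DNA, fell by 1.43. In all, 26 of 28 chromatin proteins and modifiers fell, with a median of -0.61. Ezh2, the Polycomb methyltransferase, fell by 0.57, and Cbx5 and Smarca4, of heterochromatin and of the BAF remodeler, by 0.72 and 0.55. Cbx2, another Polycomb protein, was called at -0.35 but lost its call without E16.5 replicate 3 or E17.5 replicate 1 or 2.

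Replication-dependent histone genes, which package newly made DNA, fell in 18 of 26 cases with a median of -0.66, and all 26 had lower means at E17.5. H1f1, a linker histone, had values of 11.41, 11.24 and 11.26 and then 10.09, 10.25 and 10.16, and fell by 1.14. H2ac4, H3c15 and H2bc14 fell by 1.16, 1.32 and 0.99. These genes are near copies of one another, so that their probe sets can share signal. A CCAAT box stood in 19 of the 22 with a listed promoter (86.4%).

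Genes that make ribosomes fell while those of the ribosome itself mostly were not called. Of 25 ribosome biogenesis genes 25 fell, with a median of -0.82. Dkc1, the pseudouridine synthase of snoRNA particles, went from 9.52, 9.36 and 9.65 to 8.29, 8.47 and 8.16, with no overlap, and fell by 1.20 (SE 0.11, adjusted p = 1.83e-09). Ddx21, a nucleolar helicase, and Nop56 and Gnl3, both of the nucleolus, fell by 1.08, 1.02 and 1.02. Srm, spermidine synthase and outside this list, was among the largest falls at -1.42, and its E17.5 replicate 1 (7.88) lay below replicates 2 and 3 (8.37 and 8.51). By contrast 5 of 59 cytosolic ribosomal protein genes fell, with a median of -0.04 that turned to 0.03 when arrays were quantile normalized again, and 3 fell without E16.5 replicate 3 or without E17.5 replicates 1 and 3. None rose, and 1 did without E16.5 replicate 1. Rpl12 fell by 0.78 and Rpl30 by 0.44. Splicing factors and hnRNPs fell in 26 of 30 cases (median -0.45). Snrpa1 and Snrpd1, proteins of spliceosomal snRNPs, fell by 0.84 and 0.71.

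Probe sets of snoRNAs, which guide rRNA modification, were looked at after their values were seen. Of 54 snoRNA and scaRNA probe sets 27 fell and 1 rose, with a median of -0.43. Their array means were 7.05, 7.35 and 7.55 at E16.5 and 7.0, 6.93 and 6.86 at E17.5, so that E16.5 replicate 1 lay close to the E17.5 arrays. Snord52, the only one among the 15 largest falls of all genes, had values of 6.86, 7.28 and 7.85 and then 5.72, 5.99 and 5.82, and fell by 1.49. The count of falls was 13 without E16.5 replicate 3 and 6 without E17.5 replicates 1 and 3, with 2 and 0 rises, and in B6 4 fell on the same day. Over all genes 8.96% fell in B6 on that day, so the B6 count shows nothing particular to these probe sets. None of the 54 probe sets passed the test of a difference between the strains. Gas5, a noncoding host transcript of several snoRNAs, had values of 11.17, 10.71 and 10.72 at E16.5 and 10.11, 9.94 and 9.99 at E17.5, and fell by 0.85.

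Cholesterol synthesis genes fell in 13 of 19 cases, with a median of -0.35 and none rising. Cyp51 had values of 8.0, 7.65 and 8.0 at E16.5 and 6.81, 6.94 and 6.86 at E17.5, with no overlap, and fell by 1.01 (SE 0.14, adjusted p = 1.13e-06). Sqle, squalene epoxidase, and Idi1, which makes the isoprenoid building block, each fell by 0.92, and Hsd17b7 by 0.90. Without E17.5 replicates 1 and 3 the count was 6. In B6 1 of the 19 fell and 1 rose, with a median of -0.05. Fewer genes were called in B6 in general (8.96% of all genes fell there). None of the 19 passed the test of a difference between the strains. A CCAAT box stood in 15 of the 15 genes of the group with a listed promoter. Fatty acid and phosphatidylcholine genes split, 12 rising and 5 falling of 30. Elovl6, an elongase, fell by 1.08 and Fads2, a desaturase, by 0.76, whereas Scd1, the stearoyl desaturase, rose from 6.98, 6.87 and 6.87 to 8.11, 8.12 and 8.30. Lpin1, a phosphatidate phosphatase, rose by 0.83. Of these, 9 rose and 2 fell without E17.5 replicates 1 and 3.

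Among genes of the branching tip, 11 of 22 fell and 3 rose (median -0.32). Sox9, the factor that marks distal tip progenitors, had values of 8.98, 8.73 and 9.14 and then 8.08, 7.93 and 8.07. Each E17.5 litter was below each E16.5 litter, and the change was -0.92 ± 0.12 (SE, adjusted p = 5.46e-07). Sox11 and Mycn, a transcription factor of the dividing tip epithelium, fell by 0.84 and 0.81. Cpm, carboxypeptidase M of the distal epithelial membrane, rose by 1.08. Outside this list Cldn6, a claudin of embryonic epithelium, fell by 1.20 from 10.63, 10.68 and 10.78 to 9.64, 9.50 and 9.34.

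Signaling pathways of branching showed smaller and mixed changes. Over all genes 15.8% fell and 12.7% rose. Counts of falls near the first share, as in the Notch and the TGF-beta and BMP lists, show nothing particular to a pathway. In the hedgehog pathway 6 of 14 genes fell and 1 rose. Gli3 and Gli1, its transcription factors, fell by 0.69 and 0.50, and Hhip, an inhibitor, rose by 0.41. In the Wnt pathway 8 of 36 fell and 6 rose. Wnt7b, the ligand of the lung epithelium, had values of 8.05, 7.95 and 8.03 and then 7.43, 7.45 and 7.47, and fell by 0.56. Lef1 and Rspo2 fell by 0.59 and 0.58 and Nkd1, a feedback inhibitor, rose by 0.77. Of 26 Notch genes 6 rose and 3 fell, and 1 fell without E16.5 replicate 3 or E17.5 replicate 2 or 3 and none without E16.5 replicate 1. Hey1, a Notch target, rose by 0.57. Of 32 TGF-beta and BMP genes 9 rose and 5 fell, with Tgfbr3, a coreceptor, at 0.71 and Bmp6 at 0.65. The Wnt count of falls was 5 without E16.5 replicate 3. Without E17.5 replicates 1 and 3, 2 hedgehog genes fell, 3 Wnt genes fell and 3 rose, no Notch gene fell and 6 TGF-beta and BMP genes rose.

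Fetal growth and imprinted genes fell in 5 of 20 cases and rose in 2. Peg10, a retrotransposon-derived imprinted gene, fell by 1.14 from 8.51, 8.40 and 8.61 to 7.42, 7.34 and 7.34, and Ndn fell by 0.51. The 5 falls became 3 without E16.5 replicate 1 or E17.5 replicate 3, and 2 without E17.5 replicates 1 and 3. Of 20 erythroid genes 2 fell and 1 rose. Hbb-y, the globin of primitive yolk sac erythrocytes, had values of 7.29, 7.06 and 7.05 and then 5.83, 5.41 and 5.64, and fell by 1.51 (SE 0.28, adjusted p = 7.50e-05). Tfrc, the transferrin receptor of iron-importing and dividing cells, fell by 0.76. Other genes among the 15 largest falls were Adamts18, a secreted metalloprotease (-1.54), Fndc3c1 (-1.49), AI506816, named after an expressed sequence (-1.48), and Raet1d, a ligand of a natural killer cell receptor (-1.47).

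**Figure D3:**
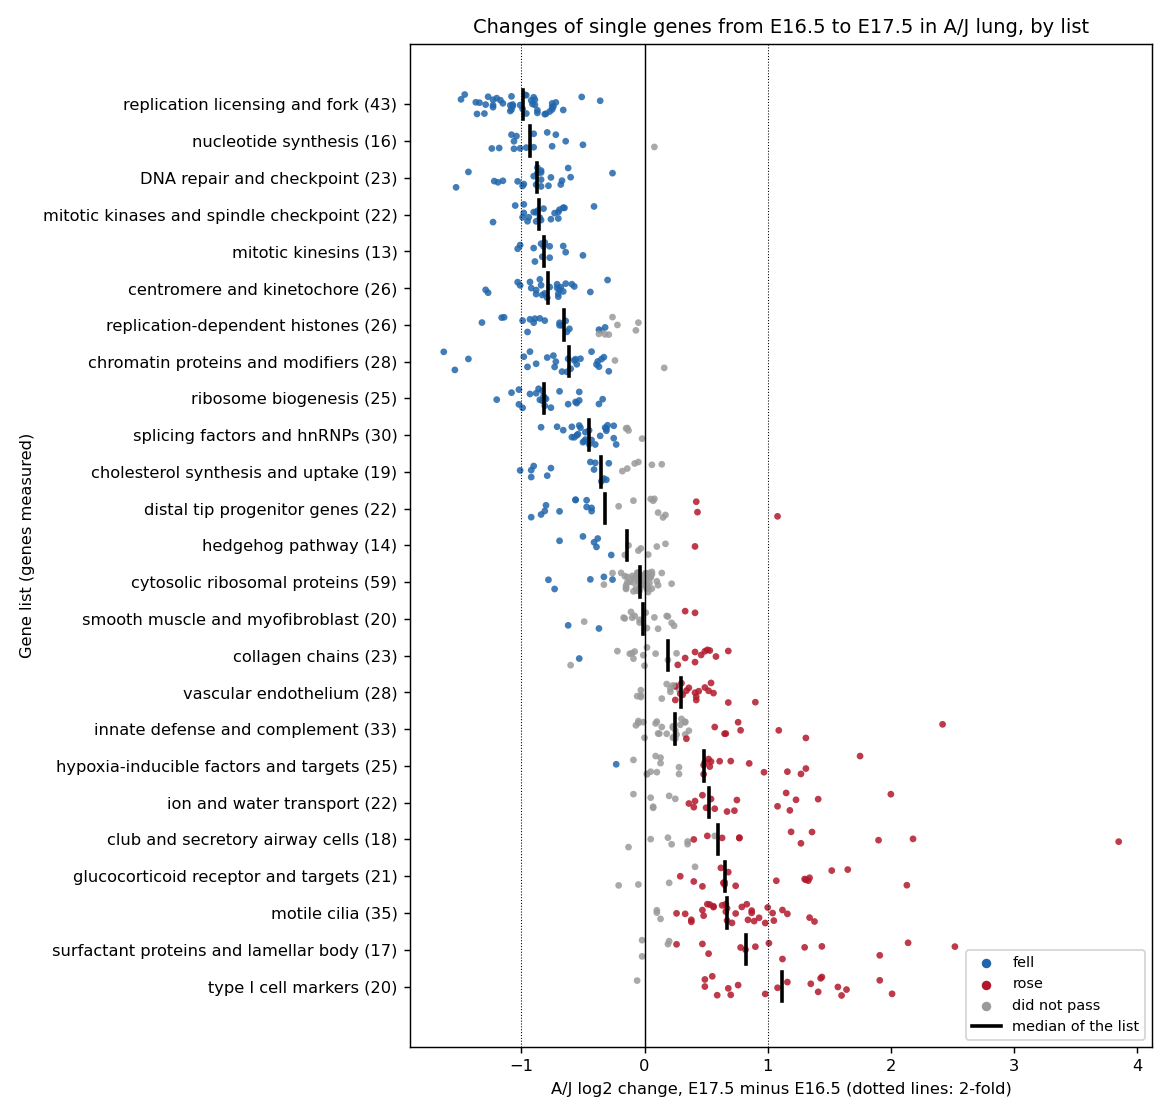
Log2 change from E16.5 to E17.5 in A/J lung (horizontal axis) of each gene of the lists drawn, with the genes measured in parentheses, blue for genes that fell, red for those that rose, gray for those not called and a black line at the median. Replication (43 of 43), ribosome biogenesis (25 of 25) and mitosis lists lie on the falling side, type I cell (19 of 20) and motile cilia (32 of 35) lists on the rising side, and ribosomal proteins near 0.

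Secretory airway genes had the largest rise of all. Scgb1a1, the secretoglobin of club cells, had values of 6.95, 5.81 and 5.89 at E16.5 and 9.82, 10.16 and 10.23 at E17.5. E16.5 replicate 1 stood about 1 above the other E16.5 litters and still far below all E17.5 litters. The change was 3.85 ± 0.41 (SE, adjusted p = 1.88e-08), a 14.5-fold difference. Cbr2, a carbonyl reductase of club cells, rose by 2.18 from 9.99, 9.78 and 9.36 to 11.73, 11.92 and 12.02. Fmo2 and Cyp2f2, monooxygenases of club cells, rose by 1.90 and 1.36. Of 18 club and secretory genes 11 rose and none fell, with a median of 0.60. Sec14l3, a lipid transfer protein known from airway ciliated and secretory epithelium, rose from 8.53, 8.28 and 7.99 to 10.07, 10.33 and 10.33.

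Surfactant genes rose in 13 of 17 cases, 7 of them at least 2-fold, with a median of 0.82. Slc34a2 had values of 10.21, 9.45 and 8.84 at E16.5, a wide spread with replicate 1 highest, and 11.98, 12.03 and 12.05 at E17.5. The E17.5 litters were close together and all higher, and the change was 2.52 ± 0.25 (SE, adjusted p = 4.15e-09). Sftpd, a collectin of the airspace, went from 5.72, 5.73 and 5.77 to 7.73, 7.92 and 7.98, a rise of 2.14. Sftpa1 rose by 1.91, Lamp3, a lamellar body protein, by 1.44 and Sftpb, needed for the surfactant film, by 1.12. Abca3, the lipid carrier of the lamellar body membrane, rose by 0.78. Of 18 type II cell markers 12 rose and 1 fell (median 0.50). Lyz1, a lysozyme, rose by 2.52, Chil1, a chitinase-like protein, by 2.49 and Cxcl15, a chemokine of lung epithelium, by 1.95.

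Type I cell markers had the highest median of the lists, 1.12, and 19 of 20 rose, 11 of them at least 2-fold. Ager, the receptor that marks type I cells, had values of 10.70, 10.61 and 10.32 at E16.5 and 12.09, 12.19 and 12.28 at E17.5. The groups were separated by more than 1, and it rose by 1.64 (SE 0.12, adjusted p = 4.84e-11). Igfbp6, a binding protein of insulin-like growth factor, and Spock2, a matrix proteoglycan, rose by 2.01 and 1.91. Clic5, a chloride channel protein, rose by 1.60, and Hopx, a homeodomain protein of type I cells, rose by 1.57 from 8.65, 8.54 and 8.26 to 10.17, 10.01 and 9.98. Rtkn2 was the member that was not called, at 6.83, 6.39 and 6.41 and then 6.60, 6.66 and 6.20, overlapping values. The count of 19 was the same without any 1 litter and without E17.5 replicates 1 and 3.

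Of 32 lung epithelial transcription factors 10 rose and 4 fell. Cebpd, a factor of the acute phase and of glucocorticoid response, rose by 1.17 and was highest in E17.5 replicate 1 (7.64 against 7.13 and 7.08). Klf5 rose by 0.73 from 8.98, 9.04 and 8.97 to 9.92, 9.64 and 9.62. Nkx2-1, the factor that sets lung identity, changed little, from 9.62, 9.73 and 9.72 to 9.82, 9.96 and 9.93, and its call at 0.21 (adjusted p = 0.0334) was lost without E16.5 replicate 1 or 3 or E17.5 replicate 2 or 3. Among neuroendocrine genes, 1 of 13 fell and 2 rose, with 1 rise without E16.5 replicate 3 or E17.5 replicate 2. Uchl1, an enzyme of neurons and neuroendocrine cells, fell by 1.02 and Grp, gastrin-releasing peptide, rose by 0.53. Among the transcription factors 2 fell without E16.5 replicate 3 or E17.5 replicate 1, and 2 fell and 7 rose without E17.5 replicates 1 and 3.

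Motile cilia genes rose in 32 of 35 cases, and all 35 had higher means at E17.5 (median 0.67). Rsph4a, a radial spoke head protein, had values of 6.18, 5.26 and 5.79 and then 7.10, 7.17 and 7.11, and rose by 1.38 (SE 0.19, adjusted p = 7.94e-07). All E17.5 litters were higher than all E16.5 litters, and E16.5 replicate 1 was the highest of its group. Lrrc23, another radial spoke protein, rose by 1.34, and Dnah6, a dynein heavy chain, and Ak7, an adenylate kinase of the axoneme, by 1.16 and 1.12. Foxj1, the factor that starts the ciliated program, was chosen after its values were seen and rose by 0.38. In B6 13 of the 35 rose, with a median of 0.21, where 6.32% of all genes rose. Only 1 of the 35 passed the test of a difference between the strains.

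Ion and water transport genes rose in 16 of 22 cases, and none fell (median 0.52). Scnn1a, the alpha subunit of ENaC, the sodium channel through which fetal airspaces are drained, had values of 7.52, 7.26 and 7.02 and then 9.30, 9.20 and 9.31. All E17.5 litters lay above all E16.5 litters, and it rose by 2.0 (SE 0.15, adjusted p = 6.29e-11). Scnn1g, the gamma subunit, rose by 1.41 and Nedd4l, the ligase that removes the channel from the membrane, by 1.23. Aqp1, the water channel of capillaries, rose by 1.18 from 9.03, 8.71 and 8.44 to 9.83, 9.99 and 9.91.

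Glucocorticoid receptor targets rose in 17 of 21 cases (median 0.65), 8 of them at least 2-fold, and none fell. Hsd11b1, which makes active glucocorticoid from its inert form, had values of 7.63, 7.55 and 6.88 and then 9.54, 9.47 and 9.45. The E17.5 values were close together and all higher, and it rose by 2.13 (SE 0.18, adjusted p = 2.32e-10). Sult1a1, a sulfotransferase, rose by 1.65, Pdk4, a kinase that restrains pyruvate oxidation, by 1.52 and Mt2, a metallothionein, by 1.34. Klf9 and Zbtb16, transcription factors induced by the receptor and chosen after their values were seen, rose by 1.33 and 1.30. Nr3c1, the receptor, was called at 0.29 from 9.57, 9.34 and 9.33 to 9.79, 9.72 and 9.61, a call lost without E16.5 replicate 3 or E17.5 replicate 1. Hsd11b2, which inactivates glucocorticoid and was chosen likewise, was not called at -0.05. In B6 9 of the 21 rose, with a median of 0.35, where 6.32% of all genes rose. None of the 21 passed the test of a difference between the strains.

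Hypoxia-inducible factors and their targets rose in 14 of 25 cases and fell in 1, with a median of 0.48. Ndrg1, a stress protein, had values of 8.66, 9.17 and 8.67 and then 10.85, 10.47 and 10.43, and rose by 1.75 (SE 0.21, adjusted p = 9.84e-08). Ankrd37 rose by 1.31 and Bnip3, a mitochondrial protein of mitophagy, by 1.27. E17.5 replicate 1 was the highest array for Ndrg1, Ankrd37 (9.06 against 8.44 and 8.40) and Bnip3 (10.49 against 10.17 and 9.90). Hif3a and Epas1, alpha subunits of the factors, rose by 0.70 and 0.48, while Hif1a, the founding subunit, was the falling member at -0.23, and none fell without E16.5 replicate 1 or 3 or E17.5 replicate 3. Glycolysis targets looked at after their values were seen were not called, with Pgk1 at -0.09, Ldha at 0.05, Hk2 at 0.09 and Slc2a1 at 0.28. Without E17.5 replicates 1 and 3, 9 of the 25 rose and none fell. In B6 4 rose, with a median of 0.10, where 6.32% of all genes rose. None of the 25 passed the test of a difference between the strains.

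Vascular genes rose by moderate amounts. Vegfa, the main vascular growth factor and one made by distal epithelium, had values of 9.33, 9.52 and 9.43 at E16.5 and 10.58, 10.55 and 10.62 at E17.5. The groups were more than 1 apart, and it rose by 1.16 (SE 0.09, adjusted p = 6.29e-11). Of 28 vascular endothelial genes 17 rose and none fell (median 0.29), and 11 rose without E17.5 replicates 1 and 3. Calcrl, the receptor of adrenomedullin, rose by 0.90, and Emcn and Ptprb, of the endothelial surface, by 0.68 and 0.56. Of 18 capillary genes 7 rose and 1 fell. Cd36, a fatty acid carrier, rose by 1.73 from 9.38, 9.35 and 9.08 to 10.95, 11.08 and 10.98, and Emp2 and Ace, angiotensin converting enzyme, rose by 1.44 and 1.25. Emp2 and Cd36 are also made outside endothelium. Of 26 vasoactive and angiogenic genes 14 rose and 1 fell. Npr3, the clearance receptor of natriuretic peptides, and Adm, adrenomedullin, rose by 1.12 and 0.97. Among 12 lymphatic genes 3 rose and 1 fell, with Mmrn1 at -0.98 and Lyve1 at 0.41. The lymphatic falls were 2 without E16.5 replicate 2 or E17.5 replicate 3. Only 1 lymphatic gene rose without E17.5 replicates 1 and 3, and Lyve1 was not called (adjusted p = 0.0574). No capillary or vasoactive gene fell without this pair.

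Stromal and matrix genes showed both directions. Inmt, a methyltransferase of alveolar fibroblasts, had values of 5.92, 5.79 and 6.02 and then 8.71, 8.69 and 8.89, and rose by 2.85 (SE 0.30, adjusted p = 1.36e-08). Of 27 lipofibroblast and alveolar fibroblast genes 14 rose and 1 fell, a fall not called without E16.5 replicate 1 or 3, E17.5 replicate 1 or 3, or both of the latter. Ces1d, a lipid hydrolase, rose by 1.32, Slc7a10 by 1.08 and Fabp4, a fatty acid binding protein, by 0.76. Eln, elastin, rose by 0.95 from 11.72, 11.75 and 11.57 to 12.63, 12.58 and 12.68, and Vcan, versican of immature matrix, fell by 0.69. Elastic fibre genes rose in 7 of 17 cases and fell in 2, and collagen chains rose in 10 of 23 and fell in 1. Col4a3, of the alveolar basement membrane, rose by 0.68 and Col18a1 fell by 0.53. No collagen gene fell without E17.5 replicates 1 and 3, and Col18a1 was not called (adjusted p = 0.0629). Col4a6 was not called, and its E16.5 replicate 1 read 7.46 against 5.75 and 5.59 in the other litters. Without E16.5 replicate 2 or 3 it was called lower, which made 2 collagen falls. Lama3 and Lama5, laminin chains of epithelial basement membrane, rose by 0.96 and 0.79. Of 20 smooth muscle and myofibroblast genes 2 fell and 2 rose. Without E16.5 replicate 3 only 1 of these fell, and without E17.5 replicates 1 and 3 none fell and 1 rose. Adhesion and tight junction genes rose in 16 of 33 cases and fell in 3, with Itgb6, an integrin that activates TGF-beta, at 1.1 and Icam1, of type I cells and endothelium, at 1.04. The adhesion falls numbered 1 without E17.5 replicates 1 and 3.

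Defense genes rose in part. Retnla, a resistin-like secreted protein, had values of 8.14, 7.50 and 7.30 and then 10.13, 10.10 and 9.96, and rose by 2.42 (SE 0.24, adjusted p = 5.02e-09). Of 33 innate defense and complement genes 9 rose and none fell. Lcn2, which starves bacteria of iron, and C7, of the complement attack complex, rose by 1.31 and 1.09. Hc, complement component 5, was outside the list and rose by 2.35 from 5.70, 5.35 and 5.67 to 7.94, 8.06 and 7.77. Of 29 macrophage genes 8 rose, a count of 5 without E16.5 replicate 2 or E17.5 replicate 2 and of 3 without E17.5 replicates 1 and 3. None of them fell, but 1 did without E16.5 replicate 1, without E17.5 replicate 2 and without E17.5 replicates 1 and 3. Cybb, of the phagocyte oxidase, rose by 0.73. Antigen presentation and interferon genes rose in 9 of 26 cases, with Gbp7 at 0.72 and Cd74, the chain that escorts class II molecules, at 0.66.

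Of 26 immediate early genes 9 rose and 1, Myc, fell, with 2 falls without E16.5 replicate 2. Ier3, a stress-induced survival protein, had values of 7.08, 7.05 and 7.17 and then 9.17, 8.94 and 8.69, and rose by 1.83 (SE 0.15, adjusted p = 2.08e-10). Ccn2, a matricellular growth factor, rose by 1.15 and Fosl2, an AP-1 subunit, by 0.89. E17.5 replicate 1 was again the highest array for each of these genes. Antioxidant and xenobiotic enzymes rose in 13 of 29 cases and fell in 5. Gpx3, the secreted glutathione peroxidase, rose by 1.49 from 8.51, 8.52 and 8.54 to 9.92, 9.97 and 10.15, and Cyp2s1 and Ephx1 rose by 1.13 and 0.99.

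The remaining largest rises were mostly of enzymes and proteins of the cell surface. Akr1c14, a hydroxysteroid dehydrogenase, had values of 6.56, 6.27 and 5.96 and then 9.30, 9.34 and 9.15, and rose by 3.00 (SE 0.17, adjusted p = 3.07e-13). Dpep1, a membrane dipeptidase, rose by 2.80 from 6.62, 6.39 and 5.59 to 9.08, 8.90 and 9.02. Msln, mesothelin, a surface protein of the lung lining, rose by 2.73 from 7.44, 7.34 and 7.02 to 9.93, 9.97 and 10.09, while 4 of 11 mesothelium genes rose with a median of 0.13. Cp, ceruloplasmin, which oxidises iron in plasma, rose by 2.45, and Gipr, an incretin receptor, by 2.16. For Akr1c14, Dpep1 and Msln alike, E16.5 replicate 1 was the highest and replicate 3 the lowest of the E16.5 litters. The 15 largest rises and 15 largest falls stayed called under every alternative run that held them. Hbb-y was too dim for the run on brighter probe sets.

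Genes that the study itself had named from these samples were followed over the day. Since the study chose them on these data, their direction is not independent evidence. Of its 30 measured falling regulators 29 fell, with a median of -0.79, and Set, with E16.5 values of 5.65, 5.89 and 5.61, was not called at 0.16. Of 8 regulators that it placed at E16.5, 7 rose (median 0.53), among them Tcf21, a mesenchymal factor, at 0.75 and Fgf7, a growth factor of the mesenchyme, at 0.58. Cebpa was not called at 0.25, though it was on leaving out E16.5 replicate 1. Of 10 early inducers 7 rose (median 0.32), a count of 4 without E16.5 replicate 3 or without E17.5 replicates 1 and 3, and Shh, the ligand sent by epithelium to mesenchyme, was not called at 0.17. All 8 genes of its Vegfa group rose (median 0.46), and 5 did without E17.5 replicate 1, alone or with replicate 3. Kdr, the main Vegfa receptor, rose by 0.42 and Nrp1, a coreceptor, by 0.41.

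A group of miRNA genes stood out after the values were seen. They lie in the imprinted region of chromosome 12 between Meg3 and Dio3, where one long transcript is known to give rise to many miRNAs. The array probes read the hairpin transcripts and not the mature miRNAs. The mature sequences of the 3 hairpins with 2-fold rises are shown, from RefSeq on GRCm38.p6, with the seed (bases 2 to 8) in capitals.
mmu-miR-127-5p, chr12:109592854-109592875, plus strand: cUGAAGCUcagagggcucugau
mmu-miR-127-3p, chr12:109592888-109592909, plus strand: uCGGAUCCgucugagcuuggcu
mmu-miR-380-5p, chr12:109711806-109711827, plus strand: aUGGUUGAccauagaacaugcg
mmu-miR-380-3p, chr12:109711842-109711863, plus strand: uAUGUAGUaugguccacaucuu
mmu-miR-369-5p, chr12:109743431-109743452, plus strand: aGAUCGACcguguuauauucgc
mmu-miR-369-3p, chr12:109743466-109743486, plus strand: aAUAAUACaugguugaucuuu
The 6 seeds differ from one another, and none is shared with another mature miRNA of the table.

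Of 39 hairpin probe sets in the region 23 rose and none fell, with a median of 0.46, and 38 had higher means at E17.5. The other 220 hairpins on the array had 10 rises, 2 falls and a median of 0.03. Only 2 hairpins of the region, Mir485 and Mir495, stayed called without E17.5 replicates 1 and 3, while the median was 0.42 and 38 of 39 were still higher. The other hairpins then had 1 rise and no falls. Their counts also moved with single litters, to 6 rises and 8 falls without E16.5 replicate 1, to 4 rises without E17.5 replicate 3, and to 1 fall without E16.5 replicate 3 or any 1 E17.5 litter. Mir369 had values of 5.18, 5.91 and 6.14 and then 7.04, 6.83 and 6.90, and rose by 1.18 (SE 0.26, adjusted p = 0.000726). Mir127 went from 5.86, 6.56 and 6.41 to 7.61, 6.95 and 7.31 and Mir380 from 5.49, 7.16 and 6.86 to 7.74, 7.44 and 7.39, changes of 1.01 and 1.02. In each of these the E17.5 litters were higher, and E16.5 replicate 1 was the lowest.

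E16.5 replicate 1 stood apart over the whole group. It held the lowest E16.5 value for 33 of the 39 hairpins, and the array means were 5.54, 6.05 and 6.08 at E16.5 and 6.53, 6.36 and 6.41 at E17.5. Without it 8 hairpins rose, with a median of 0.36. Mir127 and Mir369 stayed called at 0.80 and 0.90, and Mir380 did not at 0.51 (adjusted p = 0.171). None of these 3 was called without E17.5 replicates 1 and 3, at 0.67, 1.09 and 0.94 (adjusted p = 0.0707, 0.0527 and 0.161). Meg3 itself rose by 0.74 from 10.26, 11.05 and 10.99 to 11.38, 11.57 and 11.57. Rian, another transcript of the region, was not called in A/J at 0.18 (adjusted p = 0.466). Its values overlapped, with 7.21, 7.19 and 6.83 and then 7.65, 7.24 and 6.87, and in B6 it rose by 0.63. Rtl1, Dio3 and the neighbouring Dlk1 were not called in A/J, at 0.28, 0.24 and 0.09. In B6 lung 15 of the 39 hairpins rose on the same day with a median of 0.45, where 6.32% of all genes rose. The B6 array means were 5.82, 5.90 and 5.82 at E16.5 and 6.36, 6.32 and 6.33 at E17.5, with no litter apart.

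**Figure D4:**
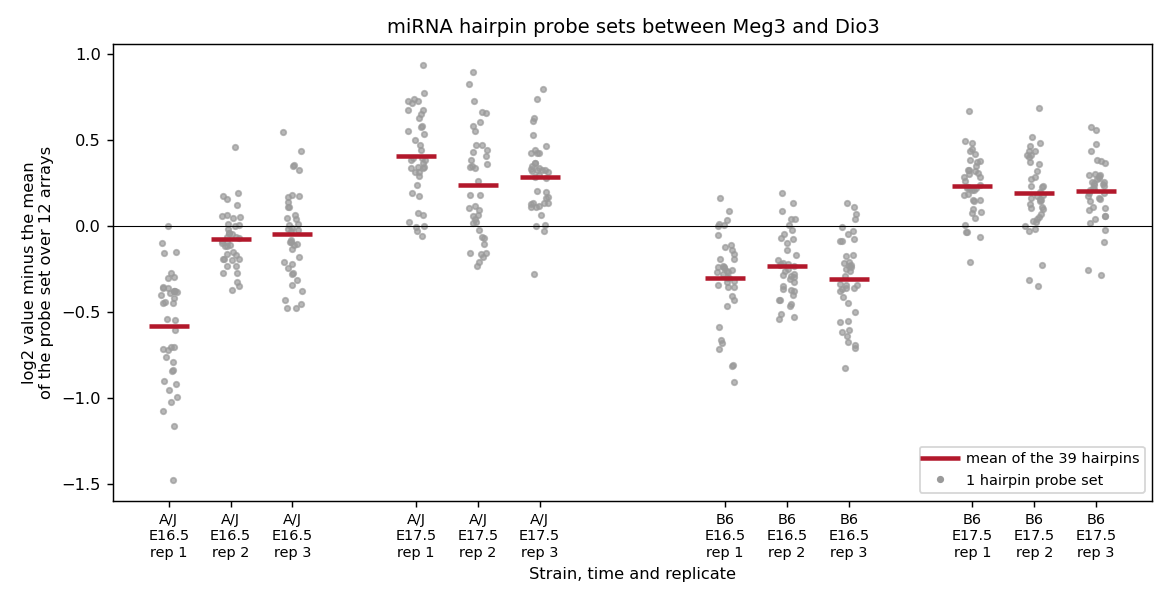
Log2 value minus the mean of its probe set over the 12 arrays for each of the 39 miRNA hairpin probe sets between Meg3 and Dio3 (points), by litter in A/J and B6, with the mean of the 39 as a red line. The E17.5 means lie above 0 in both strains, and A/J E16.5 replicate 1 lies lowest.

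The same day in B6 lung used other litters. There 1787 genes fell (8.96%) and 1261 rose (6.32%), a split of probe sets that moved from 1996 falling and 1414 rising to 3555 and 774 when arrays were centred on their medians. Across 19938 genes, which are not independent replicates, the changes of the strains correlated with r = 0.814, and the standard deviation of the change was 0.334 in A/J and 0.245 in B6. Of the genes that fell in A/J 50.3% also fell in B6, and of those that fell in B6 88.4% also fell in A/J. For rising genes these shares were 38.6% and 77.2%. No gene was called in opposite directions. Of the 208 genes that rose 2-fold in A/J, all 208 had higher means in B6 and 189 were called there, with medians of 1.23 in A/J and 0.78 in B6. Of the 136 that fell 2-fold, 135 were lower and 130 called in B6, with medians of -1.14 and -0.81. These genes were selected on their A/J values, so the medians of the strains are given side by side and not compared.

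By list, replication genes fell in 42 of 43 cases in B6 (median -0.73) and type I genes rose in 19 of 20 (0.93). The kinesin median was -0.82 in both strains. Ribosome biogenesis had -0.39 in B6 and -0.82 in A/J, and nucleotide synthesis -0.54 and -0.93. These differences of list medians were not tested, and gestation is shorter in B6. On the day before, E15.5 to E16.5, the medians less that of all genes were -0.47 in B6 and -0.25 in A/J for ribosome biogenesis. For nucleotide synthesis they were -0.38 and -0.15. No gene of either list passed the test of a strain difference. Whether the lists differ in timing between strains was not tested.

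**Figure D5:**
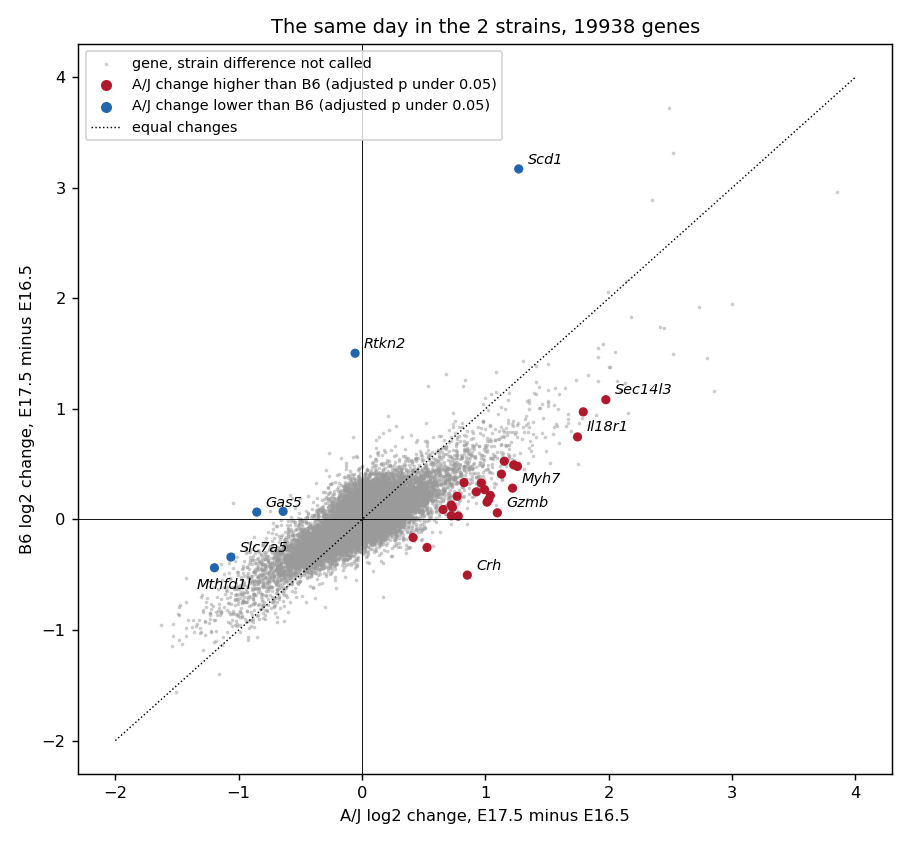
Log2 change from E16.5 to E17.5 in B6 (vertical axis) against A/J (horizontal axis), each point 1 of 19938 genes. The correlation across genes was 0.814, the dotted line marks equal changes, and the 31 genes whose change differed between strains are drawn larger, blue where the A/J change was lower (Scd1 and Rtkn2) and red where it was higher (Crh).

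The difference of the change between strains was itself tested with limma and passed in 31 of 19938 genes (0.155%), 6 lower and 25 higher in A/J, against 1952 at an unadjusted p under 0.05. Scd1 rose in both strains, with changes of 1.27 (A/J) and 3.17 (B6), and in B6 its values went from 6.76, 6.99 and 6.57 to 10.41, 9.85 and 9.57. The difference was -1.90 ± 0.25 (SE, adjusted p = 0.000398). Rtkn2, overlapping between the days in A/J, went in B6 from 6.71, 6.74 and 6.84 to 8.75, 8.19 and 7.86, a difference of -1.56 (adjusted p = 0.00731). Gas5 had B6 values of 11.54, 11.51 and 11.51 and then 11.50, 11.65 and 11.61, and was not called there (difference -0.92, adjusted p = 0.00731). These values are of 1 of its 4 probe sets, the brightest. The mean of all Gas5 probe sets changed by -1.08 in A/J, and the strain difference of that mean was not examined. Il18r1, a cytokine receptor subunit, had rises of 1.75 (A/J) and 0.75 (B6). Scd1, Rtkn2, Gas5 and Il18r1 stayed called on leaving out any 1 of the 12 litters.

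The other named differences depended on single litters. Mthfd1l and Slc7a5 (differences of -0.76 and -0.72) were called in 8 and 1 of the 12 fits that left out 1 litter. Crh, a hypothalamic stress hormone also known from fetal lung, differed by 1.36, Gzmb, a granule protease, by 1.04, Myh7, a heart myosin, by 0.94 and Sec14l3 by 0.89, and these were called in 3, 5, 6 and 4 of the 12 fits. Among the 25 higher in A/J was Wdr63, an inner dynein arm protein, which was chosen after its values were seen. Its mean change was 1.03 in A/J and 0.18 in B6 (difference 0.85, limma adjusted p = 0.00318). Whether the Wdr63 difference depends on single litters was not examined. The count of probe sets was 32, with 61 without A/J E16.5 replicate 1, 79 without B6 E16.5 replicate 3, 5 without B6 E16.5 replicate 2 and 2 without A/J E17.5 replicates 1 and 3. It moved by more than 1.5 times on leaving out each litter other than A/J E17.5 replicate 3 and B6 E17.5 replicate 1.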

How the data were processed

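RNA of pooled right lungs was hybridised to Affymetrix Mouse Gene 1.0 ST arrays, and the authors deposited, for every array, log2 values that Affymetrix Expression Console 1.1 had made by RMA. RMA already quantile normalizes the arrays, so a shift of all mRNAs together cannot be seen in these values. A group-means model was fitted with limma 3.58.1 in R 4.3.3 to 36 replicates of 12 groups (B6 E18.5 arrays 2 and 2b averaged as 1 replicate; the labels do not say what 2b is). The E17.5 minus E16.5 change was tested for each strain, as was its difference between strains, with empirical Bayes moderation and Benjamini-Hochberg adjustment over 21789 probe sets. Of the other probe sets, 1621 had several symbols and 12146 none. Summaries used Python 3.11.15 and pandas 2.3.3, and the fit was tested on simulated data. The members and gene lists were chosen with earlier results of these data known, and 66 listed genes had no probe set of their own.

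Genes were named by rule: the 15 largest rises and 15 largest falls among called genes with replicates that did not overlap, all genes of the 4 lists named by the study as candidates, up to 4 members of every other list with the largest change, and the 5 largest called strain differences in each direction. Lung markers and genes described as chosen after their values were seen stand outside this rule. Alternatives were the scaling of the arrays, the samples and probe sets in the fit, the empirical Bayes setting, the threshold, the replicate block, the choice of probe set per gene and leaving out litters. The number of arrays limits the precision.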

Additional observations from a re-analysis of the deposited data

Results flagged for a closer look

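The 10 genes below had a change from E16.5 to E17.5 that differed between A/J and B6 by limma's test of the difference itself (adjusted p under 0.05), given as the A/J change minus the B6 change on the log2 scale. The change was lower in A/J for Scd1 (-1.90), Rtkn2 (-1.56), Gas5 (-0.92), Mthfd1l (-0.76) and Slc7a5 (-0.72). It was higher in A/J for Crh (1.36), Gzmb (1.04), Il18r1 (1.0), Myh7 (0.94) and Sec14l3 (0.89). Scd1, Rtkn2, Gas5 and Il18r1 were called in 12 of 12 fits that left out 1 litter, with their highest adjusted p at 0.00308, 0.0317, 0.0326 and 0.0317. Myh7 belongs to the heart muscle list, of which 18 of 18 genes had higher means at E17.5 in A/J, and a part of heart tissue in its difference was not tested.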

How the results depend on the processing

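No named gene changed direction under any alternative run, and 238 of 284 named genes kept their side of the threshold in all runs that held them. Dim genes were not in the run on brighter probe sets. Leaving out 1 litter at a time gave 2766 to 3271 falling and 2168 to 2550 rising probe sets, 118 to 191 and 223 to 286 of them past 2-fold. The share of calls that rose was 44.5% as deposited, 35.9% with arrays centred on their medians (3973 fell and 2222 rose) and 50.3% when quantile normalized again (3016 and 3057). An alternative chosen after seeing the data, without A/J E17.5 replicates 1 and 3, gave 1646 falling and 1653 rising probe sets. Falls were thus the larger share of calls as deposited, and rises were under these last 2 settings. Named genes that lost their calls without this pair included Adm, Bmp6, Col18a1, Epas1, Fabp4, Gli1, H3c15, Lyve1, Ndn and Rspo2. Others were Kif11, Hmgb1, Edn1, Ccn1 and Tead4, and the list is not complete. Nkx2-1 and Nr3c1 lost their calls without this pair and also without single litters. The count of strain differences, 32 probe sets, was the least stable: 50 with centred arrays, 57 with quantile normalization, 18 over all probe sets, 99 over brighter probe sets, 63 with trend and robust moderation, 8 at adjusted p under 0.01, 2 without A/J E17.5 replicates 1 and 3, and 5 to 79 on leaving out 1 litter. The cause was not tested. With the replicate number as a block, 3410 probe sets fell and 2734 rose, 150 and 249 past 2-fold, and 29 differed between strains. The numbers were not used to pair the samples in the main fit. Deviations of same-numbered litters correlated at 0.0873, -0.197 and -0.21, and those of differently numbered litters at -0.174 to 0.317. So few correlations cannot show whether equal numbers share a day or batch, and the labels do not say. With 3 litters per group, small changes and dim probe sets, among them the globin, miRNA and many defense probe sets, are measured with little precision.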
